A study of Homo sapiens with 6 samples.

Results

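The genes described here are LIN28B, HMGA1, HMGA2, IGF2BP1, IGF2BP2, IGF2BP3, MYC, NRAS and HRAS, 9 of the 60624 genes counted. They were chosen by name, as known targets of the let-7 microRNAs with oncofetal or oncogenic roles, at a time when earlier results of these data were known. The cells were A549, a human line derived from a lung tumour, and their polyA RNA was sequenced in 3 libraries of RAVER1 knockout cells and 3 libraries of parental cells. The knockout group carried a CRISPR/Cas9 deletion of RAVER1, which encodes an RNA-binding protein that interacts with the splicing regulator PTBP1, and the parental group was wild type for this edit. All 3 knockout titles share the label KO2, which may stand for 1 clone, though no label states this. The p-values below thus cover differences from library to library only, with no second, separately made knockout line to compare.

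Let-7 microRNAs are short RNAs that bind complementary stretches in the 3′ untranslated region (UTR) of messenger RNAs and lower their stability and translation. LIN28 proteins bind let-7 precursors and block their maturation, while LIN28B messenger RNA is itself a let-7 target, so that the pair restrain each other. Several let-7 targets are abundant in the embryo, scarce in most adult tissues and present again in tumours, which is what the word oncofetal describes.

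The 9 mature let-7 family members in RefSeq (GRCh38.p14) share 1 seed, bases 2 to 8, which is shown in capitals because it decides which sites they can pair with. The polyA libraries do not measure these mature RNAs, and 5 of them are shown.
hsa-let-7a-5p: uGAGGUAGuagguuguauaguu
hsa-let-7b-5p: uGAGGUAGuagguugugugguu
hsa-let-7g-5p: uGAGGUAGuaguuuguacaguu
hsa-let-7i-5p: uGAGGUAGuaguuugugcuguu
hsa-miR-98-5p: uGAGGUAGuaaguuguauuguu

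Matches of 3 kinds to this seed were searched for on the transcript's strand in GENCODE 29 3′ UTRs (GRCh38): CTACCTCA (8mer), CTACCTC without a following A (7mer-m8) and TACCTCA without a preceding C (7mer-A1). The longest annotated 3′ UTR of LIN28B, which has 4549 bases, held 5 matches, and that of IGF2BP1, with 6206 bases, also held 5. IGF2BP2 and NRAS held 2 matches each, and HMGA1 and IGF2BP3 held 1 each. HMGA2 held none in its longest 3′ UTR, which belongs to a different isoform, and 7 over all its annotated 3′ UTRs. MYC and HRAS, whose longest 3′ UTRs have 476 and 533 bases, held none. Of 19128 protein-coding genes, 15.7% held at least 1 match, 3.73% held an 8mer and 0.596% held at least 3 matches in their longest 3′ UTR. Among the protein-coding genes tested, 18.1% held at least 1. The median length over the 19128 was 1103 bases, and LIN28B and IGF2BP1 were at the 91.7th and 96th percentiles of length. The part of UTR length in their match counts was not tested. The 7 matches of HMGA2, over all its UTRs, have no background counted in the same way. A match is a description of the letters and not evidence of binding.

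One site per gene is printed for the 7 genes that hold any, as the strongest match nearest the stop codon, with 8 flanking bases on either side and the match in capitals. The UTRs are those of GENCODE 29.
LIN28B 8mer, chr6:105078819-105078842, plus strand: tgcaaagtCTACCTCAtgcaagta
HMGA1 7mer-m8, chr6:34245836-34245858, plus strand: ttcacaaaCTACCTCtggacagt
HMGA2 8mer, chr12:65963305-65963328, plus strand: ttcgatttCTACCTCAgcagcagt
IGF2BP1 8mer, chr17:49051068-49051091, plus strand: gaagtaaaCTACCTCAaggtatga
IGF2BP2 8mer, chr3:185644212-185644235, minus strand: agaagaagCTACCTCAggtgtttt
IGF2BP3 8mer, chr7:23311787-23311810, minus strand: ttactcaaCTACCTCAggtattca
NRAS 7mer-m8, chr1:114707894-114707916, minus strand: cagaataaCTACCTCctcacttg

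The knockout libraries held 39693041, 39910127 and 31200927 counts, and the parental libraries held 34359060, 29811747 and 32078488. RAVER1 itself had 110, 112 and 79 counts in knockout libraries, against 2510, 1996 and 2285 in parental libraries (log2 fold change -4.67, edgeR adjusted p 1.24e-18). Median log2 change over the 16652 genes tested was 0.0019, but genes of chromosome 2 had a median of 0.42; none of the 9 genes lies there. Summed epithelial markers stood at 6417 to 7096 CPM (read counts scaled to library size) in knockout libraries and 8480 to 9335 CPM in parental libraries, with 5 of 6 lower and KRT7 higher. Leukocyte and endothelial markers were below 1 CPM in every library for 8 of 9 genes; CD14 carried most of a leukocyte sum of 3.9 to 5.22 CPM in knockout and 5.08 to 5.79 CPM in parental libraries. Of the fibroblast markers, 4 of 5 were below 1 CPM, and COL1A1 carried most of a sum of 63.7 to 67.6 CPM in knockout libraries and 46.4 to 49.7 CPM in parental libraries. All 5 pluripotent or germ cell markers were below 1 CPM. The part of these differences in the results below was not tested.

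In RAVER1 knockout cells, 5 of the 9 genes rose and none passed the threshold as lower. LIN28B rose most in relative terms, MYC next, and IGF2BP1, HRAS and NRAS by small amounts. Both HMGA genes, IGF2BP2 and IGF2BP3 had groups that overlapped and did not pass. Every gene of the 9 passed the filter on low counts. Among all genes tested, 41.4% passed in either direction, 21.3% as higher and 20.1% as lower, so that differences were common in this comparison. CPM did not overlap between the groups for the same 5 of the 9, against 50.2% of all genes tested, and 25.3% of all genes were higher without overlap. The median log2 change of the 9 was 0.18. By tool, edgeR and DESeq2 put 0 of the 9 lower and limma-voom 1, HMGA1, which had an unadjusted p of 0.0234 in edgeR.

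**Figure D1:**
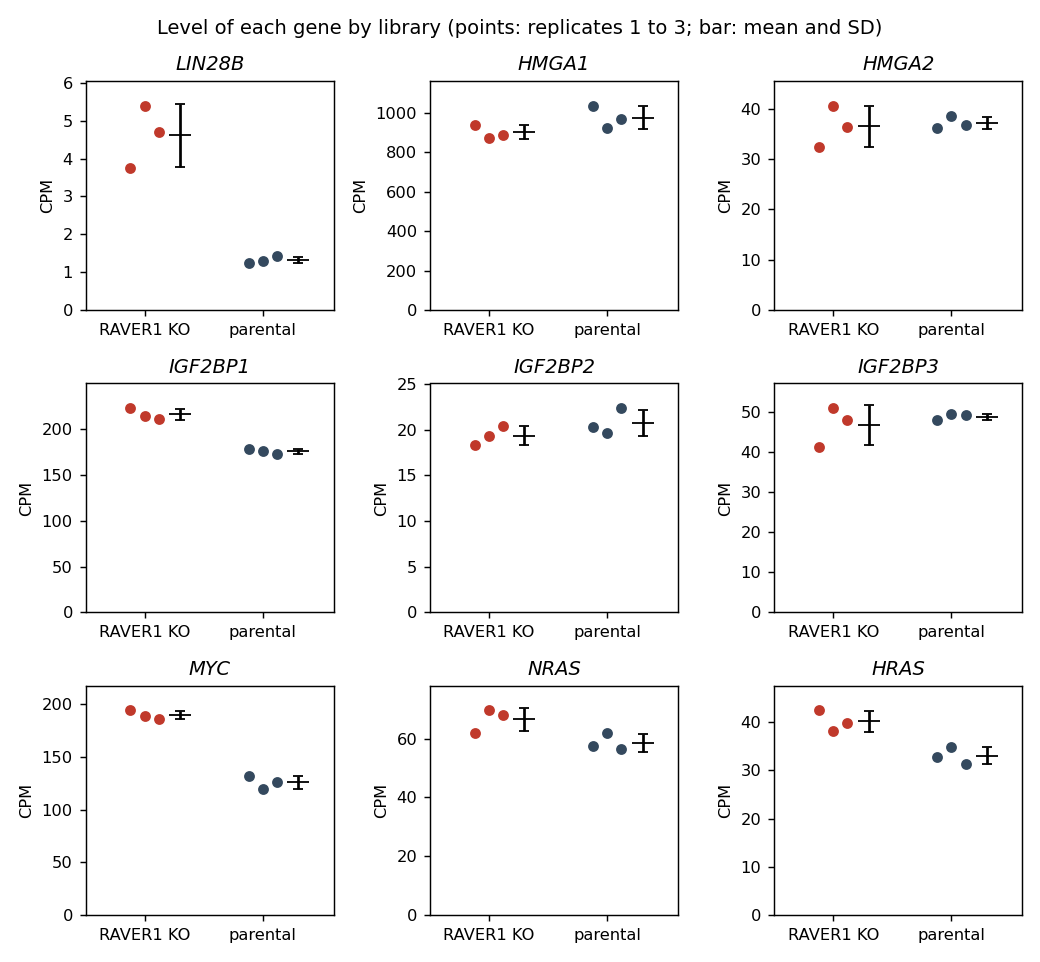
Level of each of the 9 genes in CPM (y axis, from 0) in the 3 RAVER1 knockout libraries (red, left) and the 3 parental libraries (dark, right), with mean and SD beside the points. LIN28B points lie between 3.75 and 5.40 CPM in knockout and between 1.254 and 1.416 CPM in parental libraries, whereas HMGA2 and IGF2BP3 points overlap.

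The order of the 9 by level per length was the same in both groups. In RPKM (CPM divided by the deposited gene length in kilobases), HMGA1 led with 387 ± 15 in knockout and 419 ± 24.8 in parental libraries (SD, n = 3 each). MYC followed with 41.4 ± 0.898 RPKM in knockout and 27.5 ± 1.33 RPKM in parental libraries. IGF2BP1 and HRAS came next at 22.4 ± 0.639 and 21.4 ± 1.13 RPKM in knockout libraries, and at 18.2 ± 0.281 and 17.6 ± 0.934 RPKM in parental libraries, and these neighbours overlapped in both groups. Below them stood NRAS, IGF2BP3, IGF2BP2 and HMGA2, at 15.4, 5.48, 3.63 and 2.37 RPKM in knockout libraries and 13.5, 5.71, 3.9 and 2.42 RPKM in parental libraries. LIN28B was last at 0.777 ± 0.14 RPKM in knockout and 0.222 ± 0.0144 RPKM in parental libraries. The deposited length of HMGA2 joins long alternative ends, and that of MYC is 4584 bases against 3001 in GENCODE 29, so the per-length levels of both are lower than a shorter transcript would give. The deposited lengths of IGF2BP3 and HRAS, 8535 and 1880 bases, also exceed those of their longest GENCODE 29 transcripts, 4250 and 1233 bases. The order and the family shares below thus depend on the lengths used.

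LIN28B encodes the RNA-binding protein that blocks let-7 maturation. It lies at chr6:104936616-105083332 on the plus strand (ENSG00000187772). It had 145, 215 and 146 counts in knockout libraries, against 43, 39 and 46 in parental libraries. Scaled to library size, the knockout libraries held 3.75, 5.40 and 4.70 CPM, against 1.254, 1.284 and 1.416 CPM in the parental ones. Each knockout library was above every parental library, and knockout replicate 1 was the lowest of its group. The fold change was 3.5 (log2 1.81, SE 0.166, 95% interval 1.46 to 2.15, edgeR adjusted p 4.81e-08). This absolute change was at the 97.5th percentile of the genes tested, while the mean level was at the 29.1st percentile, so the counts behind it are few. Its paralog LIN28A had 0 counts in all 6 libraries, which allows up to 0.0966 CPM in any knockout library and 0.0987 CPM in any parental library at 3 counts. In bulk RNA, fewer cells with a transcript and less of it per cell cannot be told apart.

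Several genes next to LIN28B on chromosome 6 were higher in knockout cells as well. Among the 10 tested genes on either side, 9 were higher and 3 lower, with a median log2 change of 0.25, against -0.0043 for the chromosome. The median was 0.66 for the nearest 5 on either side, of which 8 of 10 were higher. Downstream of LIN28B, BVES, a membrane protein of the Popeye family, averaged 13.2 ± 0.929 CPM in knockout and 5.32 ± 0.227 CPM in parental libraries (log2 1.30, edgeR adjusted p 9.96e-10). POPDC3, of the same family, averaged 20.9 ± 1.41 CPM in knockout and 8.10 ± 0.0252 CPM in parental libraries (log2 1.37, adjusted p 5.39e-11). PRDM1, a transcriptional repressor, averaged 7.36 ± 0.205 CPM in knockout and 2.42 ± 0.41 CPM in parental libraries (log2 1.61, adjusted p 3.90e-09). PREP and ATG5, which lie between POPDC3 and PRDM1, rose by 0.30 and 0.24 in log2 (edgeR adjusted p 0.000111 and 0.00697). Upstream of LIN28B, AL133338.2, PRDM13 and ASCC3 passed as higher (log2 1.21, 0.83 and 0.26) and TSTD3 as lower (log2 -0.67). HACE1, also upstream of LIN28B, had a log2 change of 0.14 and did not pass (edgeR adjusted p 0.495). LINC02532, at the far end of the stretch, was lower (log2 -2.08). These neighbours were named after their values were seen. The part of their shared position in the LIN28B result was not tested.

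**Figure D2:**
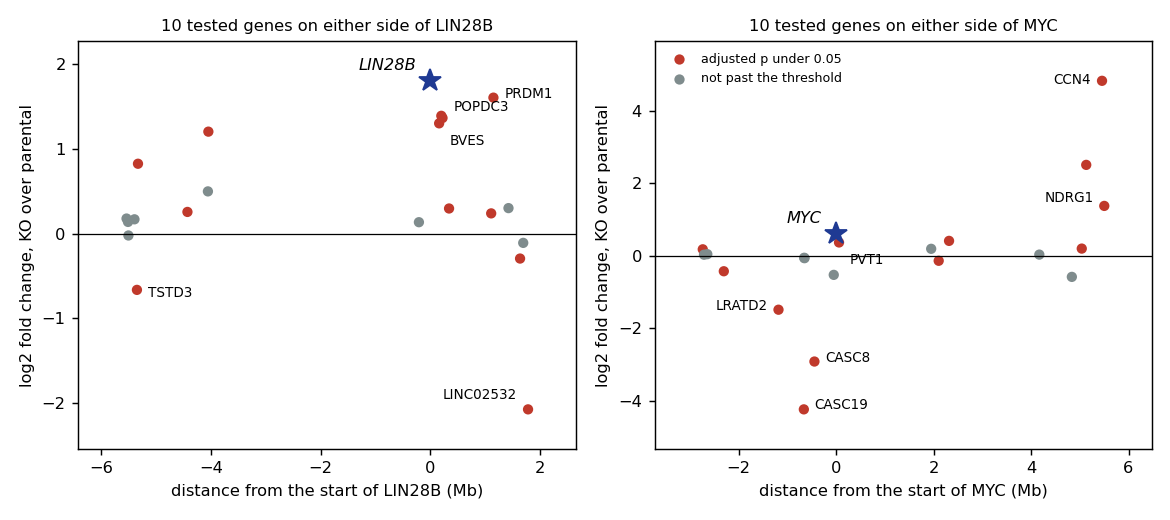
Log2 fold change (y axis, RAVER1 knockout over parental) of the 10 tested genes on either side of LIN28B and of MYC, by distance in Mb from the start of each (x axis); the star is LIN28B or MYC, and red points passed an adjusted p of 0.05. BVES, POPDC3 and PRDM1, downstream of LIN28B, have values between 1.30 and 1.61, and PREP and ATG5, between POPDC3 and PRDM1, have 0.30 and 0.24. Around both LIN28B and MYC, points lie on both sides of 0.

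There were 5 genes picked as having profiles over the 6 libraries closest to that of LIN28B, by the root mean square difference of log2 CPM centred on the parental mean. They were DIO2, a thyroid hormone deiodinase (difference 0.0976), FAM133A (0.111), TRAF1, an adaptor of TNF receptors (0.122), ITGA4, an integrin chain encoded on chromosome 2 (0.123), and STYK1 (0.124). DIO2 averaged 78.0 ± 10.1 CPM in knockout and 22 ± 1.7 CPM in parental libraries, a log2 change of 1.83. FAM133A and STYK1 rested on far lower levels, 0.9 and 0.499 CPM in knockout and 0.207 and 0.103 CPM in parental libraries. Their edgeR log2 changes were 2.11 and 2.22, against 1.81 for LIN28B. The log2 CPM compared here included a small added count, which shrinks changes at low levels, so these 2 genes look closer to LIN28B than their fold changes are.

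The HMGA genes encode architectural proteins that bind AT-rich DNA. HMGA1 (ENSG00000137309, chr6:34236873-34246231, plus strand) had 940.5, 874 and 888 CPM in knockout libraries, against 1037, 922 and 967 CPM in parental libraries. Knockout replicate 1 exceeded parental replicate 2, so the groups overlapped. The log2 change was -0.11 (SE 0.0461, 95% interval -0.21 to -0.02, edgeR adjusted p 0.0555). It passed as lower when knockout replicate 1 (log2 -0.14, adjusted p 0.00646) or parental replicate 2 (log2 -0.15, adjusted p 0.0176) was left out. HMGA1 has 8 annotated processed copies in the genome, which summed to 188, 222 and 160 counts in knockout and 191, 163 and 184 counts in parental libraries. HMGA1 itself had 27579 to 36367 counts in knockout and 28020 to 35529 counts in parental libraries, and the rule for reads that match both is not given in the sources used here.

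HMGA2 (ENSG00000149948, chr12:65824131-65966295, plus strand) had 32.4, 40.6 and 36.4 CPM in knockout libraries, against 36.3, 38.5 and 36.9 CPM in parental libraries. Knockout libraries held both the lowest and the highest value. Its log2 change was -0.03 (SE 0.0703, 95% interval -0.18 to 0.12, edgeR adjusted p 0.795), and without knockout replicate 1 it was 0.05. An interval of this width leaves out changes of the size seen for MYC. HMGA1 made up 99.4% of the summed RPKM of the pair in both groups (99.4 ± 0.0897% in knockout, 99.4 ± 0.0503% in parental libraries, SD, n = 3 each).

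The IGF2BP genes encode RNA-binding proteins that bind many messenger RNAs and shield them from decay. IGF2BP1 (ENSG00000159217, chr17:48997412-49055650, plus strand) had 223, 214 and 211 CPM in knockout libraries, against 178, 176 and 173 CPM in parental libraries. Every knockout library stood above every parental library, with little spread in either group. It rose 1.23-fold (log2 0.30, SE 0.0406, 95% interval 0.21 to 0.38, edgeR adjusted p 7.91e-06). Its 10 tested neighbours on either side had a median log2 change of -0.043, and 6 of the 20 were lower. An antisense gene shares 37 exon bases with it, at 35, 32 and 22 counts in knockout and 58, 41 and 45 counts in parental libraries. IGF2BP1 had 6556 to 8619 counts in knockout and 5352 to 6104 in parental libraries.

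IGF2BP2 (ENSG00000073792, chr3:185643739-185825056, minus strand) had 18.3, 19.3 and 20.5 CPM in knockout libraries, against 20.3, 19.6 and 22.4 CPM in parental libraries. The groups overlapped through knockout replicate 3 (log2 -0.10, SE 0.0706, 95% interval -0.25 to 0.04, edgeR adjusted p 0.262). Its log2 change was -0.065 without knockout replicate 1 and -0.055 without parental replicate 3. IGF2BP3 (ENSG00000136231, chr7:23310209-23470467, minus strand) had 41.3, 50.9 and 48 CPM in knockout libraries, against 47.9, 49.3 and 49.1 CPM in parental libraries. The parental libraries lay close together. Knockout replicate 1 stood below them, replicate 2 above them and replicate 3 within their range. Its log2 change was -0.06 (SE 0.0658, 95% interval -0.20 to 0.08, edgeR adjusted p 0.499), and 0.02 without knockout replicate 1. IGF2BP3 shares 1521 exon bases with MALSU1, a mitochondrial ribosome factor on the opposite strand, and the strand setting of the counting is not given in the sources used here, so its value is uncertain. MALSU1 had 1477, 1499 and 1149 counts in knockout and 1417, 1169 and 1305 counts in parental libraries.

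Within the family, IGF2BP1 took 73.7, 69.8 and 69.8% of the summed RPKM in knockout libraries, against 66.2, 65.9 and 64.3% in parental libraries. All 3 knockout shares were above all 3 parental shares, a difference of 5.62 percentage points. IGF2BP2 stood at 11.5 ± 0.647% in knockout and 14.0 ± 0.94% in parental libraries, and IGF2BP3 at 17.4 ± 1.76% in knockout and 20.5 ± 0.374% in parental libraries (SD, n = 3 each). The family total was 31.5 ± 0.213 RPKM in knockout and 27.8 ± 0.088 RPKM in parental libraries. For each of these 4 quantities the exact two-sided permutation test gave p = 0.1, which is the smallest that 3 libraries against 3 allow, and 0.143 after adjustment over 10 such tests. With 3 libraries per group this exact test cannot reach 0.05.

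**Figure D3:**
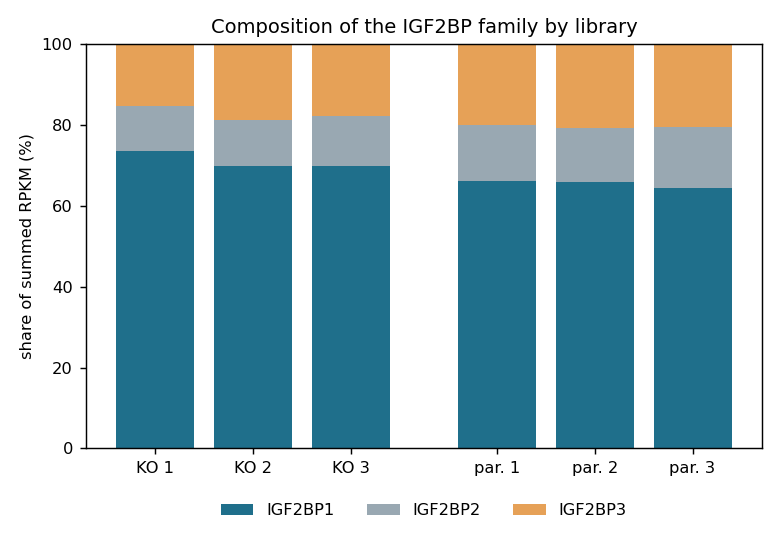
Share of each gene in the summed RPKM of its family (y axis, %) in the 3 RAVER1 knockout libraries (KO, left bars) and the 3 parental libraries (par., right bars), for the IGF2BP family. IGF2BP1 makes up 69.8 to 73.7% of its family in knockout and 64.3 to 66.2% in parental libraries.

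MYC encodes a transcription factor that drives growth and ribosome production. The gene (ENSG00000136997, chromosome 8, plus strand) had 194, 189 and 186 CPM in knockout libraries, against 132, 119.8 and 126 CPM in parental libraries. The lowest knockout library was well above the highest parental library. MYC rose 1.5-fold (log2 0.59, SE 0.0446, 95% interval 0.50 to 0.68, edgeR adjusted p 3.68e-09), at the 84.0th percentile of absolute change. MYCN had 0 counts in every library, and MYCL averaged 0.182 ± 0.0432 RPKM in knockout and 0.197 ± 0.0135 RPKM in parental libraries (log2 -0.14, SE 0.227, edgeR adjusted p 0.679, and 0.02 without knockout replicate 2). MYC thus made up 99.6 ± 0.11% of the family's RPKM in knockout and 99.3 ± 0.0552% in parental libraries (SD, n = 3 each).

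Around MYC, genes changed in both directions, with 7 of 20 neighbours higher, 5 lower and a median log2 change of 0.026. For the nearest 5 on either side the median was -0.065. PVT1, the long noncoding RNA gene that follows MYC, had 29.2, 26.0 and 27.0 CPM in knockout libraries, against 21.9, 20.6 and 21.4 CPM in parental libraries (log2 0.36, edgeR adjusted p 0.000163). On the other side, the long noncoding RNA gene CASC8 had 11, 18 and 10 counts in knockout libraries, against 114, 67 and 84 in parental libraries (log2 -2.92, edgeR adjusted p 1.21e-08). CASC19, also before MYC, was down to 1, 2 and 2 counts in knockout libraries, against 30, 34 and 26 in parental libraries. These genes too were named after their values were seen. Around HMGA1, HMGA2, IGF2BP2, IGF2BP3, NRAS and HRAS, the 20 neighbours had median log2 changes of -0.094, 0.0083, -0.19, -0.063, -0.049 and -0.0059. For the nearest 5 on either side, in the same order, the medians were -0.067, 0.0034, -0.07, -0.084, 0.15 and -0.21. The part of position in the results of these genes was not tested.

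RAS genes encode small GTPases that pass growth signals to the RAF, MEK and ERK kinases. HRAS (ENSG00000174775, chr11:532242-537287, minus strand) had 42.4, 38.2 and 39.9 CPM in knockout libraries, against 32.8, 34.9 and 31.4 CPM in parental libraries. The groups did not overlap, and HRAS rose 1.22-fold (log2 0.28, SE 0.0605, 95% interval 0.16 to 0.41, edgeR adjusted p 0.000875). NRAS (ENSG00000213281, chr1:114704469-114716894, minus strand) had 62.1, 69.6 and 67.9 CPM in knockout libraries, against 57.4, 61.9 and 56.3 CPM in parental libraries. Knockout replicate 1 and parental replicate 2 nearly met. NRAS rose 1.14-fold (log2 0.18, SE 0.0558, 95% interval 0.07 to 0.30, edgeR adjusted p 0.0126), a call that was lost without knockout replicate 2 (adjusted p 0.0579), knockout replicate 3 (0.0551) or parental replicate 3 (0.102).

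**Figure D4:**
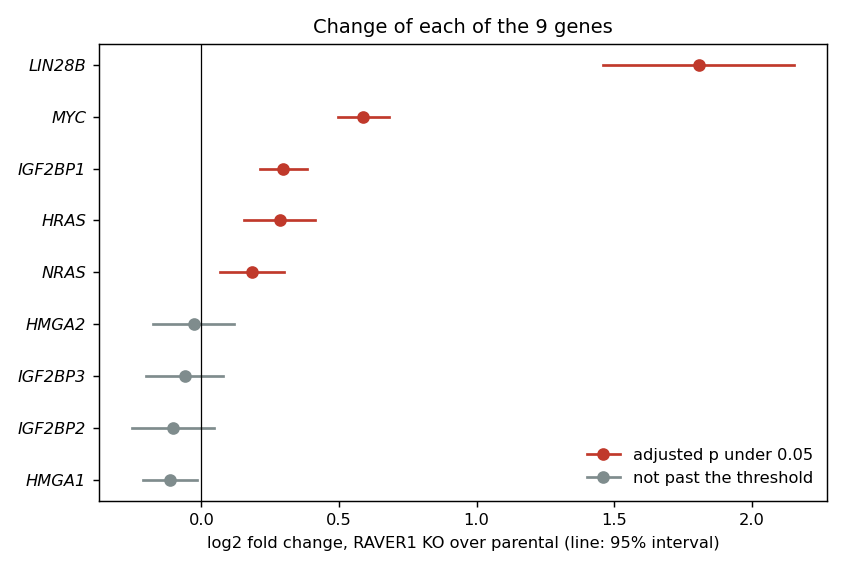
Log2 fold change of each of the 9 genes (x axis, RAVER1 knockout over parental) with its 95% interval; red marks an adjusted p under 0.05 in edgeR. LIN28B stands at 1.81, MYC, IGF2BP1, HRAS and NRAS lie between 0.18 and 0.59, and the intervals of HMGA2, IGF2BP3 and IGF2BP2 span 0.

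Genes with seed matches were found both among those that rose and among those that did not pass. Of the 7 genes with at least 1 match in an annotated 3′ UTR, LIN28B, IGF2BP1 and NRAS rose, while HMGA1, HMGA2, IGF2BP2 and IGF2BP3 did not pass. MYC and HRAS, with 0 matches, both rose. LIN28B and IGF2BP1 each held 5 matches and changed by 1.81 and 0.30 in log2, and HMGA2, with 7 over its annotated UTRs, stood at -0.03. With 9 genes chosen by name, the relation was not tested.

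Other genes known as let-7 targets were read from a list of 29, of which 26 were tested. Of these, 11 rose and 1 fell, with a median log2 change of 0.10. Both directions together made 46.2% and higher alone 42.3%, against 41.4% and 21.3% of all genes tested. The 3 with the smallest p among those that rose were all encoded on chromosome 2. SLC20A1, a phosphate transporter, averaged 142 ± 5.56 CPM in knockout and 95 ± 2.62 CPM in parental libraries (log2 0.58, edgeR adjusted p 6.15e-09), and RRM2, a subunit of ribonucleotide reductase, averaged 281 ± 4.78 CPM in knockout and 200.2 ± 7.63 CPM in parental libraries (log2 0.49). E2F6, a transcriptional repressor, had a log2 change of 0.49. THBS1, a secreted matrix protein, averaged 125 ± 1.5 CPM in knockout and 142 ± 1.34 CPM in parental libraries and fell (log2 -0.18, edgeR adjusted p 0.00119). Without the chromosome 2 genes, 8 of 23 rose and 1 fell. Leaving out knockout replicate 3 or parental replicate 3 left 7 higher, and leaving out knockout replicate 1 gave 3 lower. Upper-quartile scaling gave 7 higher and 3 lower.

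Of 18 tested genes for let-7 processing and turnover, 7 rose and 1 fell (median log2 change 0.11). Both directions together made 44.4% and higher alone 38.9%, against 41.4% and 21.3% of all genes tested. PRKRA, a partner of Dicer encoded on chromosome 2, averaged 47.5 ± 0.786 CPM in knockout and 32.4 ± 0.74 CPM in parental libraries (log2 0.55, edgeR adjusted p 9.94e-08). AGO2, the slicing Argonaute, averaged 121 ± 3.42 CPM in knockout and 90.6 ± 0.959 CPM in parental libraries (log2 0.42, edgeR adjusted p 2.81e-07). DIS3L2, the nuclease that degrades uridylated let-7 precursors, is on chromosome 2 and rose by 0.31 in log2 (edgeR adjusted p 0.000365). HNRNPA1, which in human cells restrains let-7a processing, averaged 703 ± 3.39 CPM in knockout and 852 ± 15.7 CPM in parental libraries and fell (log2 -0.28, edgeR adjusted p 7.27e-06). TUT4 and TUT7, which uridylate let-7 precursors, did not pass, with log2 changes of 0.10 (edgeR adjusted p 0.275) and 0.19 (edgeR adjusted p 0.12); both were named after their values were seen. TUT7 passed without knockout replicate 1 (adjusted p 0.0146) or parental replicate 2 (0.0407), and stood at 0.083 in log2 without parental replicate 1.

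Of 6 tested host transcripts that contain let-7 genes, 1 fell, WDR82, a chromatin-linked WD-repeat protein whose gene lies over let-7g, at 129 ± 2.38 CPM in knockout and 147 ± 2.65 CPM in parental libraries (log2 -0.19, edgeR adjusted p 0.000841). Without parental replicate 1, 2 of them passed as lower. With all libraries 16.7% of the 6 passed, against 41.4% of all genes tested. The level of a host transcript does not give that of the mature microRNA.

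MYC acts with MAX, and the MXD proteins and MXI1 compete for MAX. Of 13 tested genes of this network, 5 rose and 2 fell, with a median of 0.045, and without knockout replicate 1 the number lower was 4. With all libraries 53.8% passed and 38.5% were higher, against 41.4% and 21.3% of all genes tested. MXI1 averaged 11 ± 0.936 CPM in knockout and 6.08 ± 0.153 CPM in parental libraries (log2 0.85, edgeR adjusted p 4.18e-07). MXD1, on chromosome 2, and MXD4 rose by 0.72 and 0.27 in log2 (edgeR adjusted p 9.96e-05 and 0.00167). MAX itself and MLXIP, both named after their values were seen, also rose, each by 0.18 in log2 (edgeR adjusted p 0.00613 and 0.00584). MAX kept its call in 14 of 15 alternatives. MXD3 and MLXIPL, a glucose-responsive factor, fell to 21.7 and 1.91 CPM in knockout libraries, against 28.7 and 3.48 CPM in parental libraries (log2 -0.40 and -0.87, edgeR adjusted p 5.33e-05 and 0.000648).

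Among 27 textbook MYC target genes, most with roles in ribosome production and nucleotide synthesis, 15 rose and 2 fell, and the median log2 change was 0.12. Both directions together made 63.0% and higher alone 55.6%, against 41.4% and 21.3% of all genes tested. Outside chromosome 2, 10 of 22 rose and 2 fell, because all 5 listed genes of that chromosome rose. NCL, the nucleolar protein nucleolin, POLR1B, a subunit of RNA polymerase I, and WDR43, a ribosome assembly factor, rose by 0.60, 0.64 and 0.73 in log2 (edgeR adjusted p 2.5e-09, 4.93e-09 and 1.09e-08), and all 3 are encoded on chromosome 2. DNPH1, a nucleotide hydrolase, fell (log2 -0.23, edgeR adjusted p 0.00253). FBL, fibrillarin, fell by 0.13 in log2 (edgeR adjusted p 0.0188), a call lost without knockout replicate 2 or 3 or parental replicate 1, each of which left 1 gene of the list lower.

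Of 22 genes of the RAS pathway, 8 rose and 3 fell, with a median of 0.091. Both directions together made 50% and higher alone 36.4%, against 41.4% and 21.3% of all genes tested. Without the chromosome 2 genes 7 of 20 rose and 3 fell. RRAS2, a RAS-related GTPase, averaged 37.4 ± 2.02 CPM in knockout and 25.5 ± 1.39 CPM in parental libraries (log2 0.56, edgeR adjusted p 7.98e-07). SOS1, a RAS exchange factor on chromosome 2, and RASA1, a RAS GTPase-activating protein, rose by 0.43 and 0.35 in log2 (edgeR adjusted p 1.4e-05 and 0.000392). RASAL2, another GTPase-activating protein, fell by 0.23 in log2 (edgeR adjusted p 0.00339). The scaffold KSR1 and the kinase ARAF fell by 0.17 and 0.13 (edgeR adjusted p 0.022 and 0.0317), and both calls were lost without knockout replicate 2 or 3 or parental replicate 1 or 3. The number higher was 4 without parental replicate 3, and the number lower was 1 without knockout replicate 2, knockout replicate 3 or parental replicate 3.

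Genes that respond to ERK signalling moved both ways but more often down, with 4 of 15 higher, 8 lower and a median log2 change of -0.20. Both directions together made 80% and higher alone 26.7%, against 41.4% and 21.3% of all genes tested. The 8 of 15 that were lower stand beside 20.1% lower among all genes tested. DUSP5, a nuclear ERK phosphatase, averaged 60.1 ± 2.72 CPM in knockout and 13.5 ± 0.965 CPM in parental libraries (log2 2.15, edgeR adjusted p 5.89e-15). FOSL1, an AP-1 subunit, averaged 62.4 ± 5.93 CPM in knockout and 26.4 ± 3.42 CPM in parental libraries (log2 1.24, edgeR adjusted p 4.99e-10), and cyclin D1, encoded by CCND1, rose by 0.23 in log2. DUSP4, another nuclear phosphatase, averaged 192 ± 3.48 CPM in knockout and 319.9 ± 3.57 CPM in parental libraries (log2 -0.73, edgeR adjusted p 2.07e-11). SPRY2, a feedback inhibitor of the pathway, averaged 8.68 ± 0.266 CPM in knockout and 15.6 ± 1.02 CPM in parental libraries (log2 -0.84, edgeR adjusted p 7.34e-08). ETV4, an ETS transcription factor, averaged 39.9 ± 2.06 CPM in knockout and 56.4 ± 1.1 CPM in parental libraries (log2 -0.50, edgeR adjusted p 4.71e-07).

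Messenger RNAs reported as bound by IGF2BP proteins split evenly, with 3 of 13 higher, 3 lower and a median log2 change of -0.010. Both directions together made 46.2% and higher alone 23.1%, against 41.4% and 21.3% of all genes tested. CTNNB1, the gene of beta-catenin, averaged 327 ± 5.68 CPM in knockout and 268 ± 2.83 CPM in parental libraries (log2 0.29, edgeR adjusted p 6e-06). SIRT1, a deacetylase, and SRF, a transcription factor, rose by 0.32 and 0.25 in log2 (edgeR adjusted p 0.000685 and 0.00097). CD44, a hyaluronan receptor, averaged 466 ± 9.14 CPM in knockout and 607 ± 15.1 CPM in parental libraries (log2 -0.38, edgeR adjusted p 2.03e-07), and the proliferation marker MKI67 fell by 0.20 in log2 (edgeR adjusted p 0.000928). Without knockout replicate 2, the number higher was 5.

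**Figure D5:**
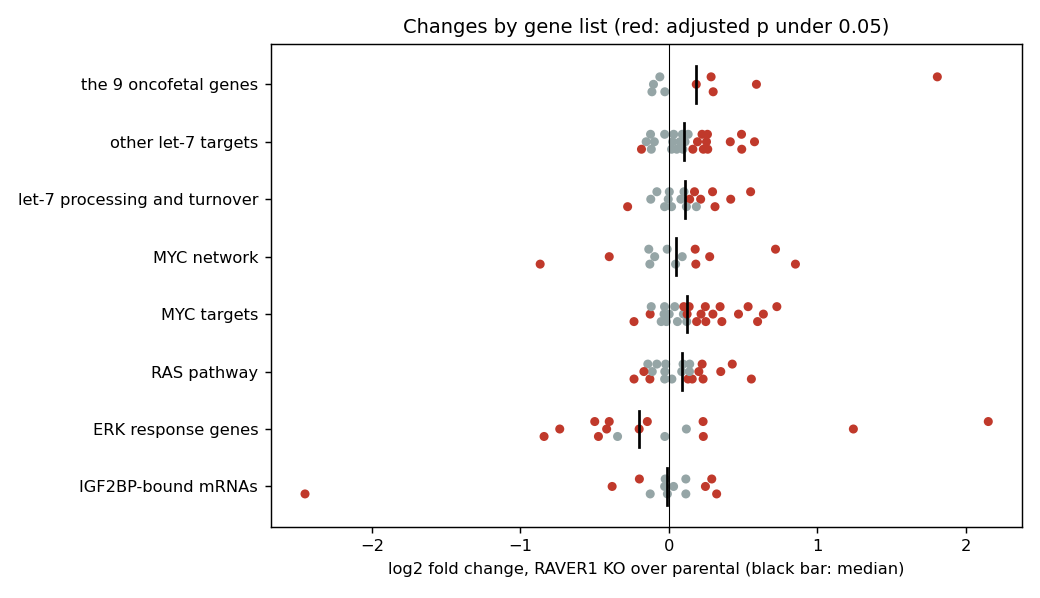
Log2 fold change (x axis, RAVER1 knockout over parental) of every tested gene in the 9 oncofetal genes and 7 lists of related genes; red points passed an adjusted p of 0.05 and black bars are medians. The median of the 9 is 0.18 and that of the ERK response genes is -0.20, and every list holds points on both sides of 0.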

How the data were processed

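The deposited table holds raw read counts per gene and library, whole numbers that the authors did not normalize, and a gene length column (other unit) in bases. Per the submitters' processing notes, the tools were cutadapt 2.8, HISAT2 2.1.0, SAMtools 1.10 and featureCounts 2.0.0 with hg38; which annotation, strand setting and multi-mapping rule were used is not given in the sources used here. Per the labels' protocols, libraries came from TRIzol RNA with a stranded Illumina polyA kit, and the design calls the replicates biological. Replicates differed by more than sampling noise (chi-square per degree of freedom 2.41 to 8.86), so no pair was merged as repeat deposits of 1 library.

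RAVER1 knockout was compared with parental in edgeR 4.0.16 (R 4.3.3): filterByExpr, TMM scaling, quasi-likelihood F-test with no covariate, and Benjamini-Hochberg adjustment over all 16652 genes kept, with a threshold of 0.05. Intervals cover 95%. Levels are CPM, and RPKM used the deposited lengths. Alternatives were RLE and upper-quartile scaling, other filters, a replicate block, DESeq2 1.42.0, limma-voom 3.58.1, a threshold of 0.01 and leaving out each library. Family shares were also taken with the length of the longest transcript. The fit was tested on simulated data with known changes.

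Positions, exon overlaps and UTRs came from GENCODE 29, joined by identifier for 58437 of 60624 genes, and mature microRNAs from RefSeq. MIRLET7DHG did not match by symbol, and 1 gene of the lists is counted but not reported here. The genes and lists were chosen with earlier results of these data known. Named genes were all 9, RAVER1 and other family members, and from each list up to 3 per direction with the smallest adjusted p among those that passed, besides genes overlapping exons of the 9, the 5 most like LIN28B, and those said to be named after their values were seen.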

Additional observations from a re-analysis of the deposited data

How the results depend on the processing

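LIN28B (log2 1.67 to 1.94), MYC (0.55 to 0.62), IGF2BP1 (0.27 to 0.32) and HRAS (0.24 to 0.32) stayed higher and past 0.05 in all 15 alternatives; at a threshold of 0.01 NRAS (0.18) did not pass. HMGA1 passed as lower with upper-quartile scaling (-0.15), no filter (-0.11) and limma-voom (-0.11), so that 1 of the 9 was lower in each. Leaving out 1 library at a time gave -0.15 to -0.068 for HMGA1, 0.15 to 0.23 for NRAS, -0.11 to 0.055 for HMGA2, -0.13 to 0.024 for IGF2BP3, -0.14 to -0.055 for IGF2BP2 and -0.31 to 0.016 for MYCL, with 4 to 5 of the 9 higher and 0 to 1 lower; the cause was not tested. Replicate numbers were not taken to pair libraries, and same-numbered deviations correlated at 0.129, 0.0292 and 0.0142. Knockout replicates 1 and 2 correlated best with the parental library of the same number, and knockout replicate 3 with parental replicate 2 (0.0667). Whether the numbers mark pairs was left undecided. With the replicate block 4275 genes were higher and 4071 lower, and HMGA1 passed as lower (-0.11, edgeR adjusted p 0.000294), again 1 of the 9; TUT7 passed as higher (0.19, edgeR adjusted p 0.0150), and of the other let-7 targets 14 were higher and 4 lower. TMM scaling without chromosome 2 and the lists without it were chosen after seeing the data and changed no call among the 9. Across alternatives 27 of 288 list counts moved, and 5 neighbours per side in place of 10 moved the median around 8 of the 9. For family shares only the difference between the groups was followed, and it moved by less than 1 SD in 42 of 42 checks. The small difference in the HMGA1 share nevertheless changed sign, from -0.081 to 0.0085 percentage points when 1 library at a time was left out. The shares themselves depend on the gene lengths used. LIN28B rests on 39 to 215 counts per library, and intervals cover counting and library spread only.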

Other observations

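Of 15 other oncofetal genes, a list that shares LIN28A and TRIM71 with the lists of let-7 genes, 6 passed the filter on low counts. Of the 6 tested, 3 were higher and 2 lower in RAVER1 knockout cells. That is 83.3% in either direction, against 41.4% of all genes tested. H19, an imprinted noncoding RNA of fetal tissue, had 124, 64 and 63 counts in knockout libraries, against 23, 18 and 22 in parental libraries (log2 1.81, edgeR adjusted p 1.56e-05). IGF2, the growth factor gene next to H19, had 10, 6 and 9 counts in knockout libraries, against 44, 37 and 42 in parental libraries (log2 -2.45, edgeR adjusted p 9.19e-07); it shares exons with the readthrough gene INS-IGF2, so its count is uncertain. PEG10, a retrotransposon-derived imprinted gene, averaged 389 ± 12.9 CPM in knockout and 311 ± 8.12 CPM in parental libraries (log2 0.32, edgeR adjusted p 3.36e-06), and TPBG, a surface glycoprotein, rose by 0.31 in log2 (edgeR adjusted p 0.000249). CEACAM6, an adhesion molecule, had 0, 0 and 1 counts in knockout libraries, against 39, 70 and 47 in parental libraries. IGF2 is also on the list of IGF2BP-bound messenger RNAs.

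Within the knockout group, replicate 1 was at one end for all 9 genes, and the share of all genes tested with this pattern was not counted. Knockout replicate 1 held the lowest CPM of its group for LIN28B, HMGA2, IGF2BP2, IGF2BP3 and NRAS, and the highest for HMGA1, IGF2BP1, MYC and HRAS. Knockout replicate 1 also differed most from its fellow replicates over all genes, since chi-square per degree of freedom was 8.86 and 5.70 in its pairs and 2.41 between replicates 2 and 3.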
